A study of Arabidopsis thaliana with 6 samples.

Results

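The genes described here are plastid-encoded genes for the plastid's own gene expression machinery and a few other housekeeping proteins. A probe set was a member when the probe table gave it exactly 1 gene, that gene lay on the plastid genome, and its symbol was among 28 listed symbols. These were the rpo, rpl and rps genes with matK, accD, clpP, ccsA and cemA. On this rule 24 genes with 1 probe set each were found among the 22746 probe sets: 4 rpo, 7 rpl, 8 rps and 5 others. The remaining 4 listed symbols, rpl2, rpl23, rps7 and rps12, had only probe sets that name both of their inverted-repeat copies, 5 probe sets in all, and were left out. The symbols ycf3 and ycf4 match the same prefixes but were not listed. RefSeq places all 24 members on the plastid genome. Mitochondrial genes with the same symbols were not counted.

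The mutant seedlings were Arabidopsis thaliana gapcp1gapcp2 double mutants, named for GAPCP1 and GAPCP2, the plastidial glyceraldehyde-3-phosphate dehydrogenases, and they were set against wild type seedlings of the same ecotype, Col-0. Both genotypes had received 0.75 µM abscisic acid (ABA) for 8 days and were 15 days old, so no array shows seedlings without ABA. Total RNA from whole seedlings was measured on 3 Affymetrix arrays for each genotype, which the titles number as biological replicates. Here the arrays are called mutant 1 to 3 and wild type 1 to 3 after their titles.

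Plastids keep a small genome of bacterial origin. It is transcribed by a plastid-encoded polymerase of bacterial type, whose core subunits are the rpo products and which recognises promoters through nuclear-encoded sigma factors, and by a nuclear-encoded polymerase of phage type, which transcribes the rpoB, rpoC1 and rpoC2 genes and accD. Plastid messages are made as long transcripts of neighbouring genes, then cut, spliced and edited, and are translated on bacterial-type ribosomes whose proteins come partly from the plastid (rpl, rps) and partly from the nucleus. Target synthesis with the labelling kit named in the labels starts from poly(A) tails, which on plastid RNA are short-lived marks of breakdown, so intensity need not follow the amount of plastid transcript. A probe set reads the long precursors together with the cut messages. The labels do not say how the mutations were made, nor give more on the lines.

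Array medians ran from 105.8 to 113.0 intensity units, and between 395 and 785 values per array were below 0. With 3 arrays a genotype, precision is limited throughout. No probe set is named GAPCP1 or GAPCP2 in the probe table, so the genotype labels were not checked on the targeted genes. Of the tissue markers listed for whole seedlings, the probe table names 2 of 8 for shoot, 4 of 8 for root and 1 of 3 for guard cells. The shoot markers LHCB4.1 and PSAE-1 summed to 16743 to 17727 on mutant arrays, against 16617 to 18629 on wild type arrays, and the root markers PYK10, NAI2, EXPA7 and EXPA18 to 5004 to 7123 on mutant arrays, against 5439.6 to 7548 on wild type arrays. With whole seedlings, fewer cells of a type and less RNA per cell cannot be told apart.

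No member passed the test between the genotypes. Intensities below 0 were raised to 0, 16 was added, and log2 values were compared with limma, with Benjamini-Hochberg adjustment over the 15922 probe sets left when the lowest 30% were set aside. All 24 members were among them. At an adjusted p under 0.05, 0 members were higher and 0 lower in the mutant, and 0% of all probe sets tested were called. At an unadjusted p under 0.05 there were 2 members, rpl14 and rpoA, both lower in the mutant, beside 1.71% of all probe sets, or 0.597% counted as lower only. The median log2 difference of the members, mutant minus wild type, was -0.049, with 17 members below 0 and 7 above. Over all probe sets tested the median was -0.0031. The 95% interval of the difference lay within -1 to 1 for 23 of the 24 members and for 97.2% of all probe sets. For 15 members it lay within -0.5 to 0.5.

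**Figure D1:**
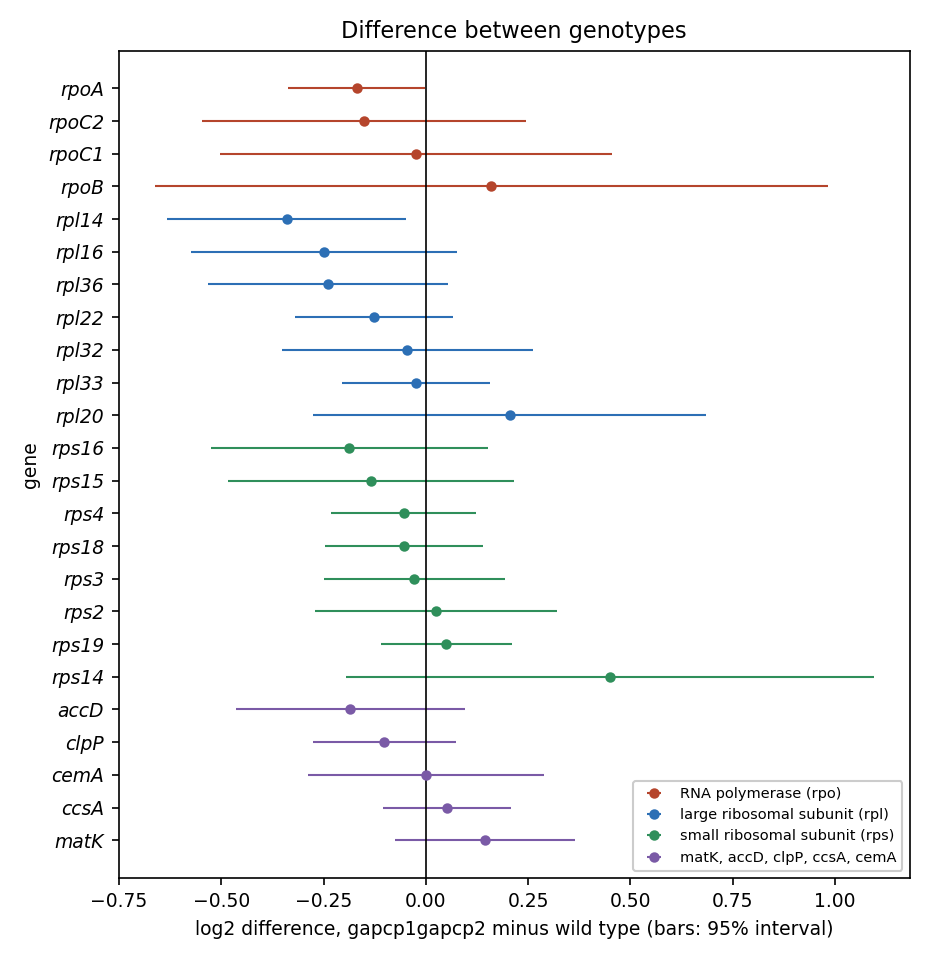
Log2 difference on the log2(intensity + 16) scale, gapcp1gapcp2 minus wild type, for each of the 24 genes (points), with the 95% interval from limma (bars, 3 arrays per genotype) and the gene's role by colour. Only the intervals of rpl14 and rpoA leave out 0, before adjustment, and that of rps14 alone extends past 1.

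The arrays of the genotypes did not overlap for rpl14 and rpoA, both lower in the mutant. That is 2 of 24 members, while 3.11% of all probe sets tested were lower without overlap and 6.27% did not overlap in either direction. With quantile normalization 4 members, accD, rpl14, rpl16 and rpoA, were lower without overlap, beside 3.37% of all probe sets. With arrays centred on their median only rpl14 and rpoA were, and the share of all probe sets was not counted for that scaling. Arrays of the same genotype also differed. The highest array of a genotype had between 1.03 and 1.91 times the intensity of its lowest array in the mutant (median 1.16 over the 24 members), and between 1.07 and 3.17 times in wild type (median 1.29).

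The core polymerase genes came in unlike profiles. The alpha subunit gene rpoA (ArthCp055), through whose product the core enzyme assembles, had intensities of 3825, 3896 and 3461 in mutant 1, 2 and 3, against 4186, 4341 and 4038 in wild type 1, 2 and 3. All mutant arrays were below all wild type arrays, but mutant 3 lay apart from mutant 1 and 2. The log2 difference of rpoA was -0.17 ± 0.074 (SE), with a limma p of 0.0482 and an adjusted p of 1.00. Without mutant 3 the difference was -0.12.

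The beta subunit gene rpoB (ArthCp014) encodes part of the catalytic centre. It had 201, 105 and 198 in the mutant arrays, against 74.5, 236 and 161 in the wild type arrays. Wild type held both its lowest array, wild type 1, and its highest, wild type 2, with mutant 2 the next lowest. The log2 difference was 0.16 ± 0.36 (SE), an interval of -0.66 to 0.98, so a change approaching 2-fold upward is inside the interval. By mean intensity rpoB was the dimmest member, and 74.5 on wild type 1 lay below that array's median of 113.

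All 4 rpo genes had wild type 2 as their highest array. The lowest array was mutant 3 for rpoA and wild type 1 for rpoB, rpoC1 and rpoC2. For rpoC1, the beta' subunit gene, intensities were 1952, 2096 and 2160 in the mutant arrays, against 1401, 2641 and 2510 in the wild type arrays. For rpoC2, the beta'' subunit gene, they were 428, 407 and 464 in the mutant arrays, against 386, 649 and 447 in the wild type arrays. In both, all mutant arrays lay between wild type 1 and wild type 2. Their log2 differences were -0.02 ± 0.21 and -0.15 ± 0.17 (SE). Values on every array for rpoC1, rpoC2, rpl16, rpl36 and clpP are shown because of their profiles, and these genes were chosen after their values were seen.

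**Figure D2:**
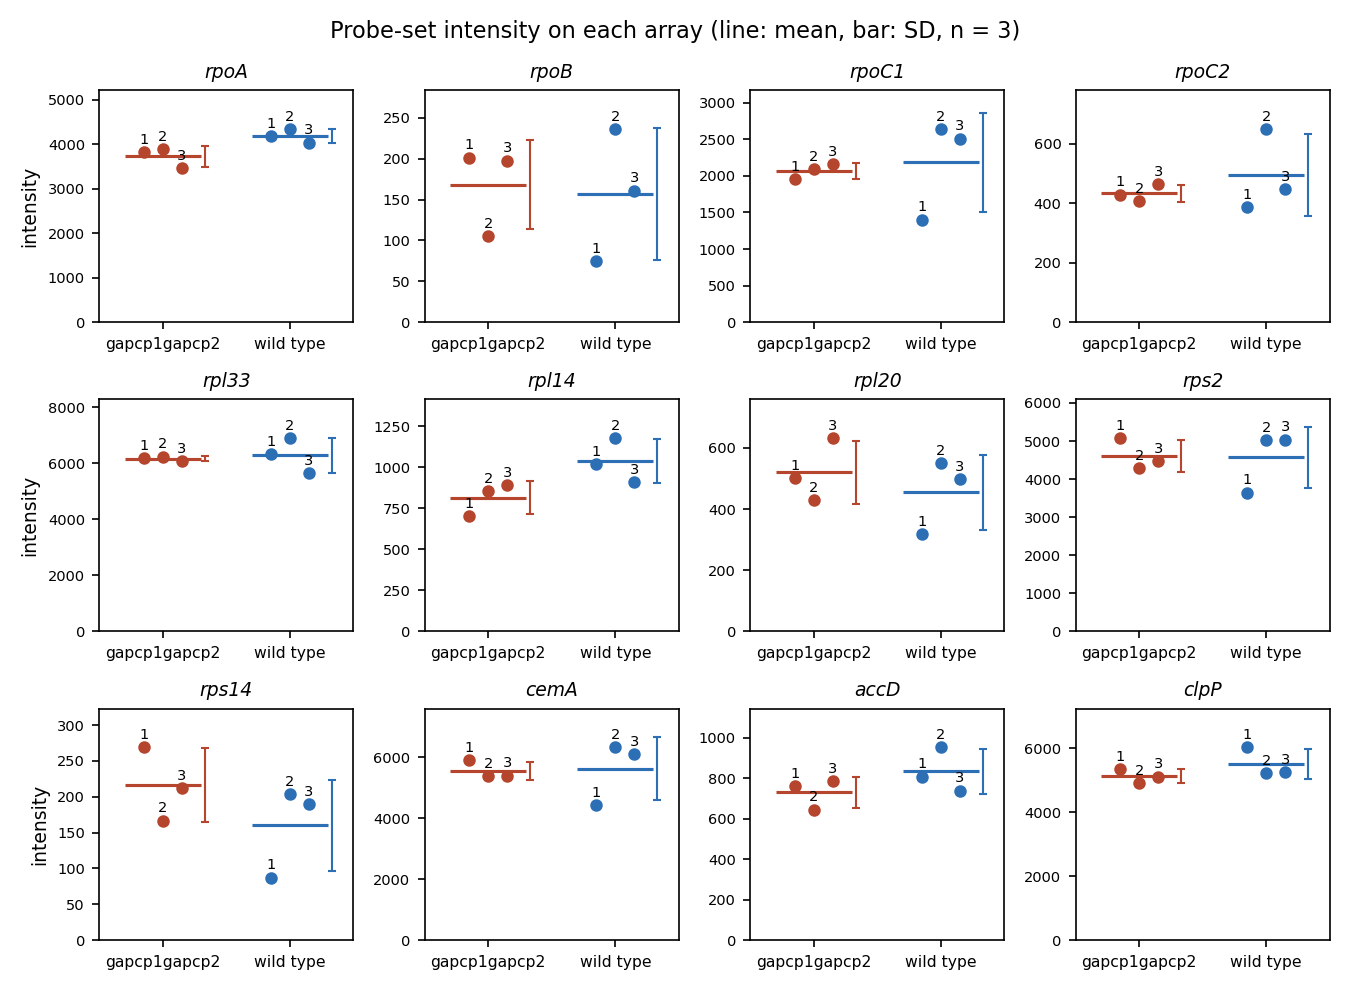
Probe-set intensity (linear scale from 0) of 12 of the 24 genes on each array, gapcp1gapcp2 at left and wild type at right. Digits are replicate numbers, horizontal lines are means and bars beside them the SD of 3 arrays. The genotypes separate for rpoA and rpl14, while rpoB, rpoC1, rpoC2, rpl20, rps2, rps14 and cemA have their lowest value on wild type 1.

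Genes for proteins of the large ribosomal subunit had differences mostly below 0. Of the 7 rpl members 6 had a log2 difference below 0, with a median of -0.13, and 0 passed. Of all probe sets tested 51.2% were below 0, and without wild type 2 only 4 of the 7 were. The gene rpl14 (ArthCp059) had intensities of 701, 854 and 889 in the mutant arrays, against 1019, 1178 and 910.2 in the wild type arrays. The groups did not overlap, but mutant 3 and wild type 3 were nearly equal. The log2 difference was -0.34 ± 0.13 (SE, interval -0.63 to -0.05), with a limma p of 0.0274 and an adjusted p of 1.00.

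The gene next to it, rpl16, had 1771, 2194 and 2273 in the mutant arrays, against 2278, 3021 and 2161 in the wild type arrays. For rpl36, in the same stretch of the genome, the values were 2137, 2371 and 1759 in the mutant arrays, against 2340, 2818 and 2228 in the wild type arrays. Wild type 2 stood highest in each, and the groups overlapped, except for rpl16 after quantile normalization. Their log2 differences were -0.25 ± 0.14 and -0.24 ± 0.13 (SE). Without wild type 2 the difference of rpl16 was -0.10, and without mutant 3 that of rpl36 was -0.12.

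The gene rpl33 (ArthCp043) had 6167, 6231 and 6071 in the mutant arrays, against 6309, 6891 and 5638 in the wild type arrays. The mutant arrays were close to each other and lay inside the wild type range. For rpl20 (ArthCp045) the values were 500.5, 428 and 632 in the mutant arrays, against 317, 550.2 and 498 in the wild type arrays. It was the rpl member with the widest range, lowest on wild type 1 and highest on mutant 3, and the only one with a difference above 0, at 0.21 ± 0.21 (SE). The others, rpl22 and rpl32, averaged 2834 ± 61.1 and 3440.3 ± 374 in the mutant, against 3103 ± 289 and 3573 ± 614 in wild type (SD, n = 3 each).

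Genes for proteins of the small ribosomal subunit had differences on either side of 0. Of the 8 rps members 5 were below 0 and 3 above, with a median of -0.04, and 0 passed. The gene rps14 (ArthCp020) had 269, 167 and 212 in the mutant arrays, against 87.4, 204 and 189.7 in the wild type arrays. Wild type 1 was far below the other arrays, and mutant 2 lay below wild type 2 and 3, so the groups overlapped. Its difference of 0.45 ± 0.28 (SE) was the largest of the members, with an interval of -0.20 to 1.095 and a limma p of 0.148 (adjusted p 1.00). Leaving out wild type 1 brought it to 0.10. With rpoB, rps14 was among the dimmest members, and 87.4 on wild type 1 lay below that array's median of 113.

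The gene rps2 (ArthCp011) had 5077, 4286 and 4464 in the mutant arrays, against 3645, 5018 and 5039 in the wild type arrays. Here again wild type 1 was lowest, while mutant 1 and wild type 2 and 3 were close together at the top. The difference was 0.03 ± 0.13 (SE). Among the other small subunit genes, rps16 averaged 360.4 ± 57.1 in the mutant and 413 ± 67.2 in wild type, and rps15 averaged 326 ± 64.8 in the mutant and 357 ± 47.4 in wild type (SD, n = 3 each). The means of rps3, rps4, rps18 and rps19 differed between the genotypes by log2 differences between -0.05 and 0.05, with overlapping arrays in all 4.

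The remaining members act outside the ribosome and polymerase. The gene accD (ArthCp031) encodes the plastid-made subunit of acetyl-CoA carboxylase, which starts fatty acid synthesis. It had 759, 644 and 784 in the mutant arrays, against 806, 953 and 738 in the wild type arrays, a log2 difference of -0.18 ± 0.12 (SE). Only wild type 3 lay inside the mutant range. The gene cemA (ArthCp034), for a protein of the chloroplast envelope, had 5905, 5390 and 5392 in the mutant arrays, against 4439, 6334 and 6105 in the wild type arrays. Wild type 1 lay below all mutant arrays and the other wild type arrays above them, and the log2 difference was -0.00015 ± 0.13 (SE).

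For clpP, a catalytic subunit gene of the Clp protease, the values were 5345, 4912 and 5116 in the mutant arrays, against 6039, 5223 and 5260 in the wild type arrays. It was the member of this group with its highest array in wild type 1, the array that was low for many others. The gene matK, for the plastid intron maturase, averaged 5374 ± 254 in the mutant and 4882 ± 624 in wild type, and ccsA, which acts in attaching haem to c-type cytochromes, averaged 4968 ± 75.8 in the mutant and 4799 ± 297 in wild type (SD, n = 3 each). The log2 differences were -0.10 ± 0.077 for clpP, 0.14 ± 0.097 for matK and 0.05 ± 0.069 for ccsA (SE), and 0 of the 5 genes passed.

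Most of the extremes fell on wild type 1 and wild type 2. Wild type 2 was the highest array for 16 of the 24 members, whereas it was highest for 21.1% of all probe sets tested, and it was lowest for 0 members. Wild type 1 was lowest for 10 of the 24, against 10.5% of all probe sets. With quantile normalization these counts were 15 and 10 (17.8% and 14.5% of all probe sets), and with arrays centred on their median 16 and 10. The SD of the log2 values was larger in wild type than in the mutant for 20 of 24 members (83.3%), against 48.6% of all probe sets tested. The other plastid genes shared these traits in part. The SD was larger in wild type for 70.0% of the 10 NDH genes and 60.6% of the 33 photosynthesis genes, and of the photosynthesis genes 39.4% were lowest on wild type 1 and 48.5% highest on wild type 2. These are counts over genes that share the same arrays and genome, and carry no test.

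**Figure D3:**
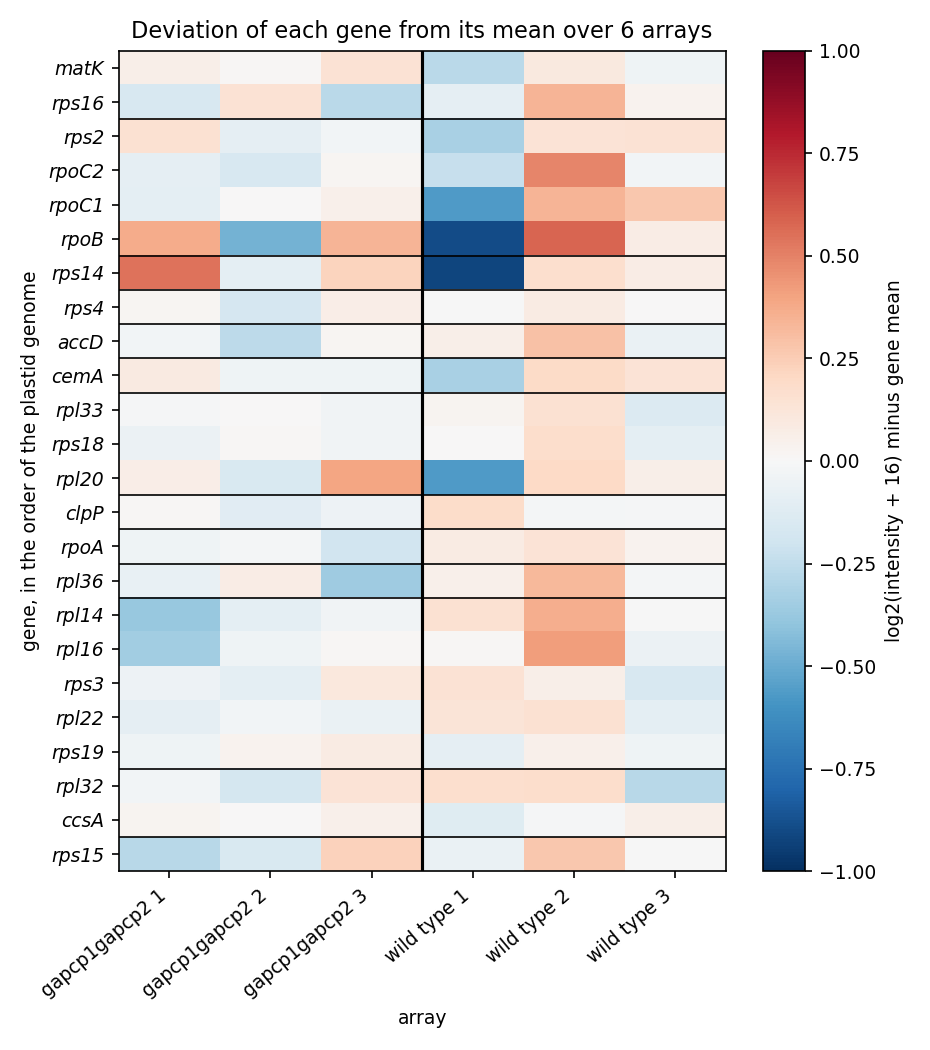
Deviation of each gene's log2(intensity + 16) from its mean over the 6 arrays (colour), with genes in plastid genome order and lines where another protein-coding gene lies between neighbours. The wild type 1 column is bluest at rpoC1, rpoB, rps14 and rpl20, and the wild type 2 column is red or near 0 throughout.

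Some members that are neighbours on the plastid genome shared a lowest or highest array, and so did members that lie apart. In the RefSeq gene order rps2, rpoC2, rpoC1 and rpoB follow each other with no other protein-coding gene between them. All 4 were lowest on wild type 1, and so were matK, rps14, cemA, rpl20, rps19 and ccsA in other stretches. The highest array was mutant 1 for rps2 and wild type 2 for rpoC2, rpoC1 and rpoB. Relative to each gene's own mean, wild type 1 stood at -0.32 for rps2, -0.23 for rpoC2, -0.57 for rpoC1 and -0.90 for rpoB on the log2 scale. The stretch from rpoA to rps19, which holds 7 members, looked otherwise. There wild type 1 was above the gene mean for 6 of 7, all but rps19, and 6 of 7 had a log2 difference below 0, again all but rps19. In the stretch of rpl33, rps18 and rpl20, the neighbours rpl33 and rps18 shared the profile of wild type 2 highest and wild type 3 lowest, and rpl20 did not. Elsewhere rpl22 and rpl32 had that profile too. These stretches were chosen after the values were seen.

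Across the 24 members the median deviation from the gene's own mean was -0.036, -0.066 and 0.020 in mutant 1, 2 and 3, against -0.037, 0.175 and -0.0089 in wild type 1, 2 and 3. Wild type 2 was the farthest from 0. For the rpo genes alone it was -0.067, -0.090 and 0.037 in the mutant arrays, against -0.40, 0.41 and 0.053 in the wild type arrays. The 33 plastid photosynthesis genes had 0.02, -0.098 and 0.066 in the mutant arrays, against -0.028, 0.191 and 0.012 in the wild type arrays, and so had the same highest array. The 10 plastid NDH genes also stood highest on wild type 2, at 0.188, and lowest on wild type 3, at -0.194.

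The 13 mitochondrial probe sets that were tested gave 0.102, -0.116 and 0.116 in the mutant arrays, against -0.226, 0.242 and 0.056 in the wild type arrays, so wild type 2 was again highest and wild type 1 lowest. Nuclear genes of plastid ribosomal proteins had smaller median deviations: that of 10 was between -0.036 and 0.040 on the 6 arrays. For all probe sets tested it was between -0.041 and 0.035, but deviations of opposite sign cancel in such a median. The log2 range of single probe sets over the arrays had a median of 0.43 for all probe sets tested. It was 0.49 for the members and 0.22 for the 10 nuclear genes. Smaller nuclear lists varied more. The median deviation was between -0.257 and 0.237 for the 2 translation factor genes. For the 2 cytochrome c assembly genes it was between -0.275 and 0.186. Both medians were highest on wild type 2, but of these genes only the translation factor gene AT2G24060 was itself highest there. The 5 CLP protease genes gave -0.093 to 0.061. The 4 root markers had a median deviation of -0.40, 0.29 and 0.04 in the mutant arrays, against 0.36, -0.21 and -0.065 in the wild type arrays, and the 2 shoot markers 0.040, -0.021 and -0.043 in the mutant arrays, against 0.113, -0.052 and -0.037 in the wild type arrays. FMA, the only listed guard cell marker that the probe table names, was dim, with intensities of 86.4 to 123. Its deviations were -0.067, -0.022 and -0.020 in the mutant arrays, against -0.19, 0.25 and 0.05 in the wild type arrays. FMA was thus lowest on wild type 1 and highest on wild type 2. The root marker medians were highest on wild type 1 and mutant 2, and both shoot markers were also highest on wild type 1. The 2 lowest values of rpoB, rpoC2, rps2, rps14, rpl20 and cemA fell on wild type 1 and mutant 2. For cemA, mutant 2 and mutant 3 were nearly equal, at 5390 and 5392. Not all members went that way: rpoA, rpl14 and clpP were above their means on wild type 1, and rps16 and rpl36 on mutant 2. These genes were picked after the values were seen, and the share of all probe sets with the same 2 lowest arrays was not counted. The part of these markers in the profiles was not tested.

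**Figure D4:**
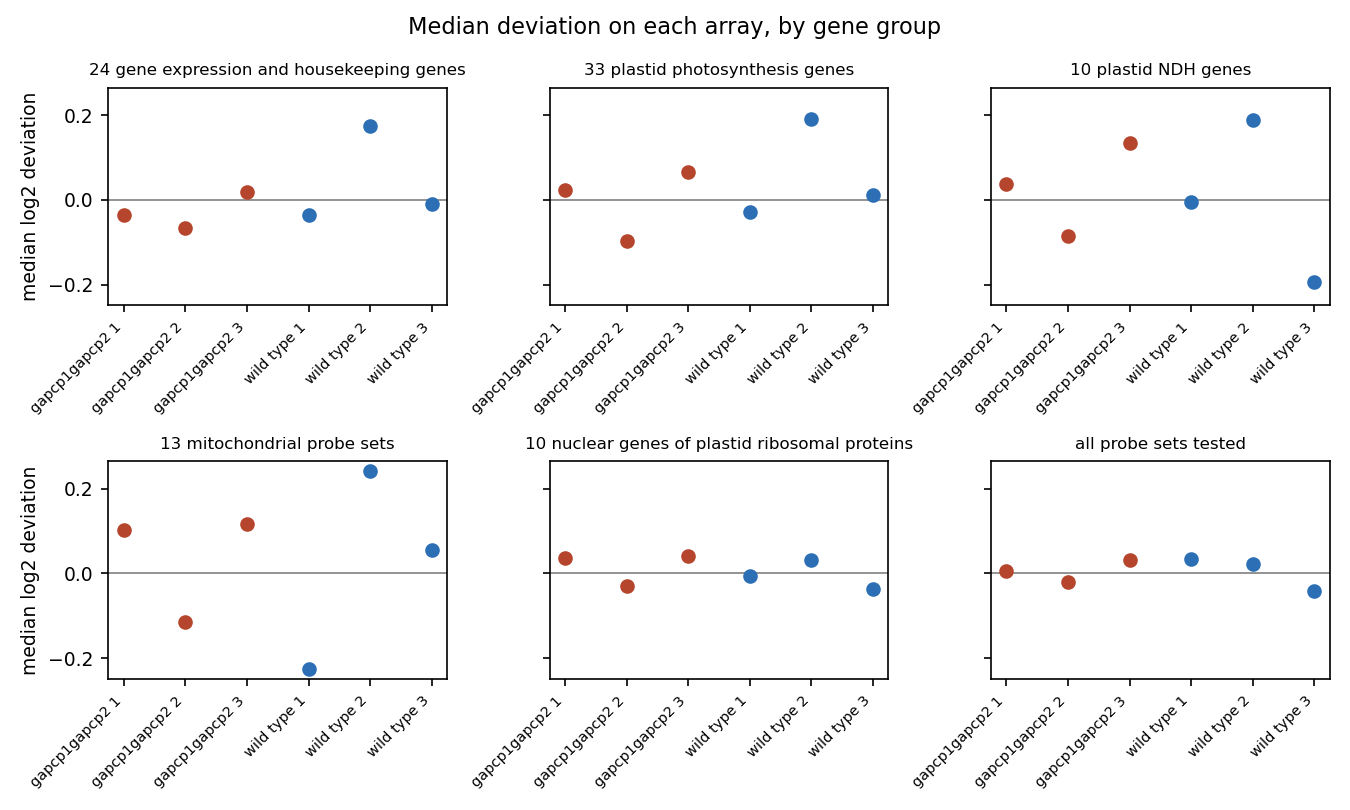
Median over genes of the deviation from each gene's mean (log2 scale) on each array, gapcp1gapcp2 arrays at left and wild type arrays at right, for the 24 members and 5 other groups. Wild type 2 is highest for the members and for the plastid photosynthesis, NDH and mitochondrial genes, and the 10 nuclear genes of plastid ribosomal proteins stay within -0.036 to 0.040.

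Nuclear genes that work with these plastid genes also gave no call. The 8 lists named 103 genes, of which 22 had a probe set with 1 named gene and 21 passed the filter, in 6 lists. Limma placed 0 of the 21 past an adjusted p of 0.05 and 0 under an unadjusted p of 0.05. Their log2 differences ran from -0.11 to 0.17 with a median of 0.025, 14 above 0 and 7 below. The lists of polymerase-associated proteins and of nuclear acetyl-CoA carboxylase subunits had no named probe set and were not analysed here.

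Among 10 nuclear plastid ribosomal protein genes, 7 were above 0 and 3 below, and those with the smallest p were AT4G01310 at 0.06 ± 0.069 and AT3G13120 at -0.04 ± 0.062 (log2 difference ± SE). Of 5 nuclear CLP protease genes, AT1G09130 averaged 2088 ± 82.3 in the mutant and 1944 ± 114 in wild type, and AT4G25370 averaged 987 ± 38.3 in the mutant and 1040.0 ± 29.1 in wild type (SD, n = 3 each). The cytochrome c assembly genes CcdA and AT1G49380 had log2 differences of 0.17 ± 0.17 and -0.03 ± 0.14 (SE), and the translation factor genes FUG1 and AT2G24060 had -0.11 ± 0.19 and -0.00030 ± 0.11. CAF1, which acts in splicing of plastid introns, had 0.04 ± 0.12, and AT5G15700, listed with the phage-type polymerases, had 0.13 ± 0.33. All these intervals included 0, and the arrays of the genotypes overlapped for all 21.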

How the data were processed

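Each array has a column of deposited intensities, linear and summarised per probe set, made with the Affymetrix software GCOS per the submitters' processing notes. How it summarised and scaled the arrays, and its version, is not given in the sources used. Values below 0 show that something had been subtracted. Groups and replicate numbers came from the sample titles. A free-text label that speaks of embryos conflicts with the tissue labels and was not used. Probe sets were named from the platform's probe table (13513 with 1 gene, 503 with several, 8730 unnamed), and symbols were updated by gene ID through RefSeq's table of the TAIR10.1 assembly, in which 13436 matched. The deposited file names no genome build, so no coordinates are given.

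Values were floored at 0 and compared as log2(value + 16) with limma 3.58.1 in R 4.3.3 (lmFit, eBayes with an intensity trend, two-sided). For dim genes this scale makes differences smaller than they are. P-values set the difference between the genotypes against the spread between the arrays titled as biological replicates, which limma moderated over all probe sets. Without the intensity trend the limma p of rpoA was 0.13. The code was tested on simulated data. Arrays with the same number did not deviate alike (correlations over all probe sets of -0.59, -0.48 and -0.13 for numbers 1, 2 and 3), so numbers were not treated as pairs. The correlation was 0.59 for mutant 1 with wild type 2 and 0.38 for mutant 2 with wild type 1. The members and lists were chosen with earlier results of these data known. Values on every array are given for the brightest member of each role, the member with the largest difference and the member with the widest range. Of each nuclear list the 2 genes with the smallest p are named. Alternatives were other filters, scalings and pseudocounts, a generalized log2, eBayes without trend, the replicate block and leaving out each array in turn. Plots used matplotlib 3.10.9.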

Additional observations from a re-analysis of the deposited data

How the results depend on the processing

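Under all 15 alternatives limma placed 0 probe sets, 0 members and 0 nuclear partner genes past the threshold, and the 273 probe sets under an unadjusted p of 0.05 became 117 when the dimmest 50% were set aside (of 11373 tested) and 619 with no filter at all (of 22746 tested). With the replicate number as a block the count of calls was again 0, with 137 probe sets and 0 members at an unadjusted p under 0.05. The unadjusted p ran from 0.0150 to 0.105 for rpl14 and from 0.0338 to 0.180 for rpoA, and their adjusted p was never under 0.999. The median log2 difference of the members was -0.049 and ran from -0.12 to 0.026 with 1 array left out. It was above 0 only without wild type 2, where 13 of 24 members were above 0. Without wild type 1 it was -0.11 and without wild type 3 -0.12. Quantile normalization gave -0.057 and arrays centred on their median -0.043. With ycf3, ycf4 and the 5 probe sets of inverted-repeat copies, an alternative chosen after seeing the data, it was -0.024. Those 5 were all highest on wild type 2, and 4 of them were lowest on wild type 1. With arrays centred on their median, cemA (0.0055) and AT2G24060 (0.0053) turned above 0. With 1 array left out the sign turned in 20 of 144 values, in 11 of 24 members, with log2 differences over cemA (-0.16 to 0.094), rpl20 (-0.027 to 0.36), rpl32 (-0.20 to 0.032), rpl33 (-0.099 to 0.046), rpoB (-0.25 to 0.49), rpoC1 (-0.31 to 0.14), rpoC2 (-0.31 to 0.057), rps18 (-0.12 to 0.020), rps2 (-0.13 to 0.10), rps3 (-0.12 to 0.038) and rps4 (-0.10 to 0.014). The members that did not turn ranged over accD (-0.27 to -0.085), ccsA (0.0032 to 0.092), clpP (-0.14 to -0.033), matK (0.045 to 0.23), rpl14 (-0.43 to -0.24), rpl16 (-0.34 to -0.10), rpl22 (-0.21 to -0.081), rpl36 (-0.33 to -0.12), rpoA (-0.20 to -0.12), rps14 (0.10 to 0.65), rps15 (-0.28 to -0.028), rps16 (-0.31 to -0.065) and rps19 (0.019 to 0.089). Of the 10 nuclear genes named in the report, the only ones run one by one, those that turned were AT1G49380 (-0.12 to 0.086), CAF1 (-0.052 to 0.13), FUG1 (-0.30 to 0.069), AT2G24060 (-0.097 to 0.076) and AT5G15700 (-0.18 to 0.43). The cause was not tested. Dim probe sets are limited by signal near the background, as 1.74% to 3.45% of an array's values lay below 0.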
